A study of Mus musculus with 12 samples.

Results

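The IFIT, ISG15 and antiviral effector genes are 10 mouse genes that cells switch on after they sense interferon. They were taken by gene name from the table of read counts, which held 49671 genes, and each of the 10 matched 1 row. The members are Isg15, Usp18, Herc6, Ifit1, Ifit2, Ifit3, Ifit3b, Bst2, Rsad2 and Ifi44. All 10 had enough reads to enter the tests, which ran over 15271 genes.

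RNA sequencing was done on ImPSC-1, a line of immortalised mouse pancreatic stellate cells whose labels call them mesenchymal cells of the pancreas. There were 4 stable derivatives with 3 libraries each: cells overexpressing Kitl (Kitl_OE), cells overexpressing Egfp as their control (Egfp_OE), cells in which Kitl was knocked down with a hairpin (shKitl), and cells with the PLKO-1 control hairpin vector, labelled WT (shCtrl). All were cultured in serum-containing DMEM and none of the labels names an interferon treatment or an infection. Each library carries a P number, which was 18, 19 and 20 in Kitl_OE, 17, 18 and 19 in Egfp_OE, 13, 14 and 15 in shKitl, and 14, 15 and 16 in shCtrl. The labels do not say what P stands for, whether a derivative is 1 clone or a pool, or whether the libraries came from separate cultures, so a p-value here speaks only to how far these libraries vary, which may be technical.

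Type I interferons bind a receptor on the cell surface whose kinases activate a complex of transcription factors that contains IRF9. This complex binds a repeated GAAA-type element, the interferon-stimulated response element, before the start of the genes it turns on. The products act at different steps: ISG15 is a small ubiquitin-like protein that is attached to other proteins, HERC6 is the ligase that attaches it in mouse cells, and USP18 removes it and also dampens the interferon receptor. The IFIT proteins bind RNA or partner proteins and interfere with translation of viral RNA, BST2 (tetherin) holds budding virus particles at the cell surface, and RSAD2 (viperin) makes a nucleotide that ends viral RNA chains. Kitl is the gene of stem cell factor, which binds the receptor tyrosine kinase KIT.

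The windows of sequence below show the response element in front of the members that carry it. The 250 bases before the gene start in RefSeq promoters of the build GRCm38.p6 were searched for GAAANNGAAA on both strands, and overlapping copies were counted. An entry was found for 9 member genes, with Usp18 the remaining one, and 6 of the 9 held the motif, against 978 of all 32851 promoters (2.98%). The windows are written 5′ to 3′ on the strand of the gene, with the copies of the motif in capitals and 40 bases on each side.
Isg15, chr4:156200835-156200936, minus strand: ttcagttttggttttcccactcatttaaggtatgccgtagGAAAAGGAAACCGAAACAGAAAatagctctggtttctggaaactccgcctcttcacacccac
Ifit1, chr19:34640745-34640853, plus strand: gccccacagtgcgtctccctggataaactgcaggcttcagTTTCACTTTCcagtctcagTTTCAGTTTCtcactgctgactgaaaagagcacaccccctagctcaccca
Ifit3, chr19:34583333-34583456, plus strand: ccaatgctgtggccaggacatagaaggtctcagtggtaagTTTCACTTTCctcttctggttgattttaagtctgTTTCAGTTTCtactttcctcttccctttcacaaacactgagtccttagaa
Bst2, chr8:71537547-71537642, minus strand: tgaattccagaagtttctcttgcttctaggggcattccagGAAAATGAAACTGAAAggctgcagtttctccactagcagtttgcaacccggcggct
Rsad2, chr12:26456523-26456612, minus strand: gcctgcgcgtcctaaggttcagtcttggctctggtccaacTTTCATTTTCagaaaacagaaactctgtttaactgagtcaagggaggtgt
Isg15 had 3 overlapping copies, Ifit1, Ifit3 and Bst2 had 2 each and Rsad2 had 1. The Ifit3b window, chr19:34607729-34607852, had the same 124 letters as that of Ifit3, with 0 positions that differ. The windows of Herc6, Ifi44 and Ifit2 did not contain these letters. A second motif, TTCNNNGAA, the element known from genes that answer interferon gamma, was in 7.02% of all promoters and in those of Bst2 and Ifit2 among the members. A match of letters is a description of the sequence and no binding was measured.

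The libraries held 24979742 to 33517686 counts in genes. ERCC spike-in RNAs took 0.446% to 0.684% of the counts in 11 libraries and 1.35% in Egfp_OE P18, the library that was also highest for every member within its group. Kitl itself stood at 125, 114 and 128 CPM (counts relative to the TMM-scaled library size) in Kitl_OE libraries and at 72.4, 31.8 and 72.2 CPM in Egfp_OE libraries. It stood at 25.1, 25.5 and 30.3 CPM in shKitl libraries and at 73.4, 73.5 and 76.3 CPM in shCtrl libraries. The targeted gene thus lay on the labelled side of its control in every library, while its receptor gene Kit had at most 2 counts in any library. Within Egfp_OE, P18 had the least Kitl, next to the shKitl range, and the most of every member. Egfp_OE P17 and P19 had like levels of Kitl, yet P19 was lowest of its group for all 10 members. Kitl was also nearly level across shCtrl, where the highest library exceeded the lowest by a median of 10.4-fold over the members. A link between Kitl and the members within a group was not tested. The summed CPM of 14 stellate markers, most of it from Col1a1, Col1a2, Vim and Acta2, was 21399 to 25449 in Kitl_OE, 5100 to 6642 in Egfp_OE, 7543 to 18486 in shKitl and 5552 to 7241 in shCtrl, and Gfap was under 1 CPM throughout. The list did not move as one in Kitl_OE against Egfp_OE: 6 markers rose and 4 fell by edgeR, the 4 being Pdgfra (-3.68), Thy1 (-2.49), Fap (-2.90) and Ngfr (-4.90) on the log2 scale. Of 15 immune markers, Siglech, Cd3e, Cd8a and Ncr1 had no counts in any library and the leukocyte gene Ptprc did not exceed 0.0394 CPM. Their summed level was 21.1 to 30.8 CPM in Kitl_OE, 5.63 to 6.29 in Egfp_OE, 8.10 to 21.2 in shKitl and 5.29 to 10.1 in shCtrl, carried in Kitl_OE mainly by Csf1r and Lyz2, so the sums of both lists were higher in every Kitl_OE library than in any Egfp_OE or shCtrl library. Of 12 epithelial and endothelial markers, 9 stayed under 1 CPM in every library, and the sum was 26.3 to 36.2 CPM in Kitl_OE, 6.21 to 9.53 in Egfp_OE, 11.7 to 33.6 in shKitl and 8.47 to 13.9 in shCtrl. The part of these marker differences in the members' values was not tested. In bulk RNA, fewer cells that respond and less RNA in each cell cannot be told apart.

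The members shared an order of levels. Their mean CPM was lowest in Kitl_OE for 9 of 10, Ifit2 being lowest in shCtrl, and highest in shKitl for 8 of 10, Isg15 and Bst2 being highest in Egfp_OE. For all 10 members every shKitl library lay above every Kitl_OE library. The order of shKitl and Egfp_OE was within their spread for most members. Egfp_OE P18 lay above every shKitl library for 6 members, and Egfp_OE P19 lay under every shKitl library for all 10. The shares of all genes arranged in these ways, shKitl against Kitl_OE or Egfp_OE, were not measured. Egfp_OE and shCtrl overlapped for all 10.

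**Figure D1:**
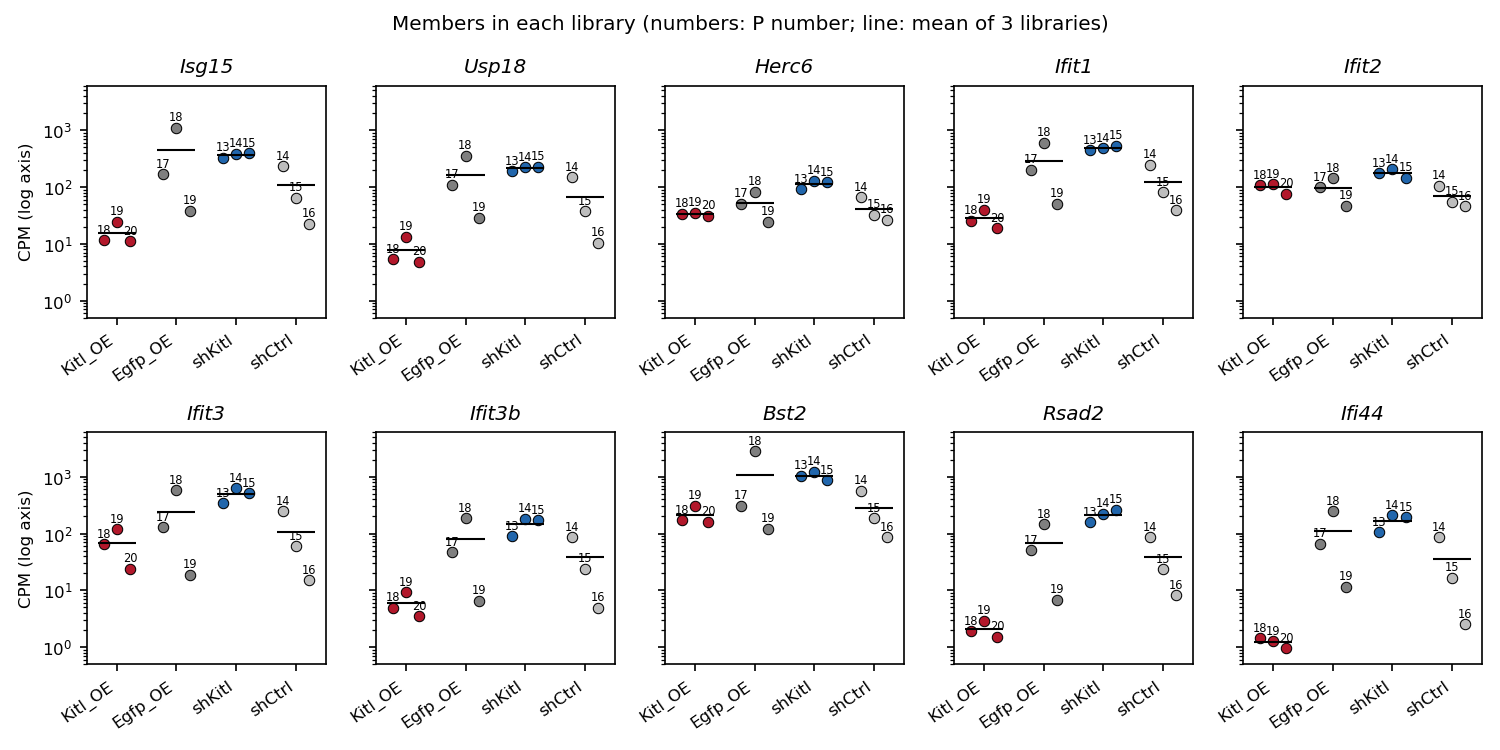
Level of each member in each of the 12 libraries, in CPM on a log axis, with the P number beside each point and a line at the mean of the 3 libraries of a group. Egfp_OE and shCtrl are spread widely, with P18 highest and P19 lowest in Egfp_OE and P14 highest and P16 lowest in shCtrl, while shKitl libraries lie close together above shCtrl.

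Spread of the members within a group differed between the groups, and the same fold was not measured over all genes. The highest library exceeded the lowest by a median of 2.00-fold over the 10 members in Kitl_OE (1.14 to 4.91), against 21.6-fold in Egfp_OE (3.08 to 30.9). In shKitl the same ratio was 1.41 (1.19 to 2.03), against 10.4 in shCtrl (2.28 to 33.8). The libraries kept their places across genes: in Kitl_OE, P20 was lowest for all 10 members and P19 highest for 9, and in Egfp_OE, P18 was highest and P19 lowest for all 10. In shCtrl, P14 was highest and P16 lowest for all 10. Within each of the 2 control lines the members were therefore high or low together in a library. Egfp_OE P18 also stood apart over all tested genes. Its counts differed from P17 and P19 by a chi-square per gene of 332 and 300, against 34.2 between P17 and P19. That value was 18.2 to 40.8 between Kitl_OE libraries, 83.3 to 142 between shKitl libraries and 16.6 to 109 between shCtrl libraries.

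**Figure D2:**
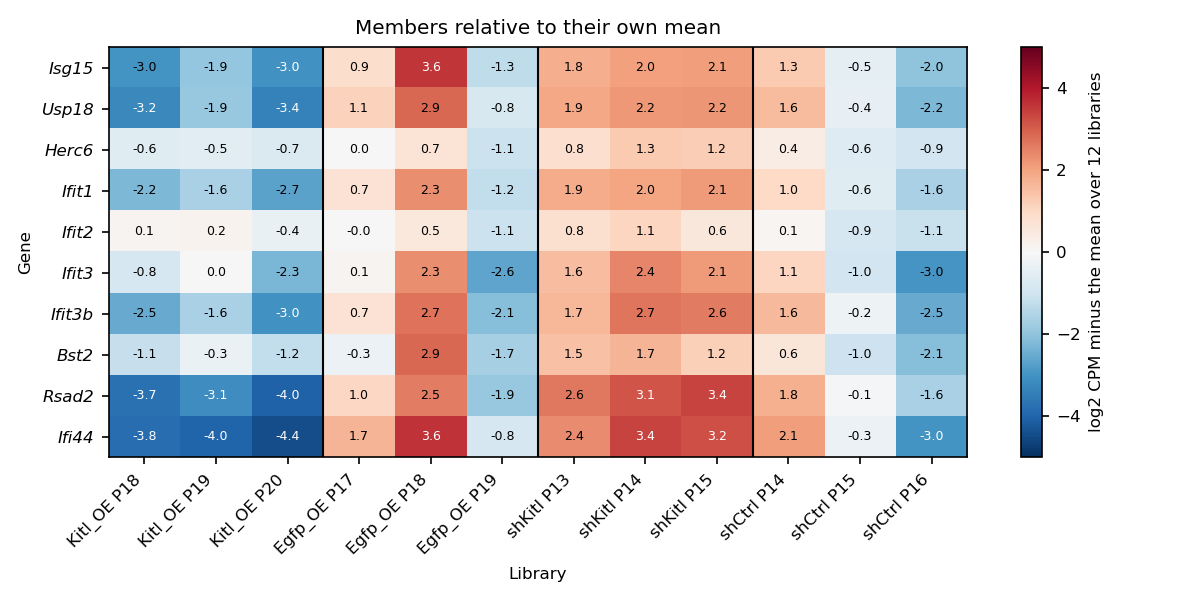
Log2 CPM of each member in each library minus that member's mean over the 12 libraries, with vertical lines between Kitl_OE, Egfp_OE, shKitl and shCtrl. Ifi44 and Rsad2 are lowest in Kitl_OE, Herc6 and Ifit2 vary least, and Egfp_OE P18 is above 0 for every member, as the shKitl libraries are.

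On the scale that allows genes to be compared with each other, the deposited TPM (transcript abundance that divides counts by gene length), Bst2 was the most abundant member in every group. It averaged 680 ± 269 TPM in Kitl_OE and 2829 ± 3636 TPM in Egfp_OE (SD, n = 3 each). In shKitl it averaged 3508 ± 702 TPM and in shCtrl 1006 ± 976 TPM. Isg15, Ifit3 and Ifit1 followed it in that order in Egfp_OE, shKitl and shCtrl, and Herc6 was last in all 3. In Kitl_OE the order was different: Bst2 was followed by Ifit3 at 114 ± 79.6 TPM, Ifit2 at 72.4 ± 12.8 TPM and Isg15 at 60.0 ± 29.5 TPM, and the last places were taken by Rsad2 at 1.40 ± 0.48 TPM and Ifi44 at 0.571 ± 0.0897 TPM. The ranges of all 9 neighbouring pairs in the order overlapped in Egfp_OE and in shCtrl. In shKitl 4 of 9 overlapped and in Kitl_OE 5 of 9, where Bst2 stood clear of Ifit3, Ifit1 of Herc6, Usp18 of Rsad2 and Rsad2 of Ifi44.

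Overexpression of Kitl was compared with overexpression of Egfp. Of the 10 members 6 fell in Kitl_OE cells, namely Ifi44, Rsad2, Isg15, Usp18, Ifit3b and Ifit1, and 0 rose (edgeR quasi-likelihood test, Benjamini-Hochberg adjusted p under 0.05). Over all genes tested 18.9% fell and 15.4% rose in this comparison. The median log2 fold change of the members was -3.55, against -0.07 over all genes. Without Egfp_OE P18 the median was -2.16 and 5 members fell, beside 3056 of 15622 genes. Herc6, Ifit2, Ifit3 and Bst2 did not pass. For Ifi44, Rsad2, Isg15, Usp18 and Ifit1 every Kitl_OE library lay under every Egfp_OE library, which held for 25.6% of all genes. The exact two-sided permutation p of such a gene is 0.1, the smallest that 3 against 3 libraries allow.

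Kitl knockdown was compared with the control hairpin in the same fit. For all 10 members every shKitl library lay above every shCtrl library (exact two-sided permutation p = 0.1 each), an arrangement found for 11.0% of all genes. The median log2 fold change was 1.92, against 0.05 over all genes. Without shCtrl P14, the library of its group with the most of every member, the median was 3.11 and the log2 values of 8 of 10 members were over 1.5 times as large, Ifit2 and Herc6 being the others. Isg15 was then at 3.06, Usp18 at 3.16, Ifit3 at 3.72 and Ifit3b at 3.36. By edgeR 0 of the 10 were called there, beside 82 of 15610 genes. None of the 10 passed an adjusted p of 0.05 by edgeR, with adjusted p from 0.209 to 0.392, and none of the 15271 genes did (percent called 0). At an unadjusted p under 0.05 edgeR marked 4 members, Herc6, Ifit2, Rsad2 and Ifit1, beside 15.8% of all genes in either direction and 11.1% on the higher side. DESeq2 called 2 members higher, Herc6 (log2 1.40, adjusted p = 0.0340) and Ifit2 (log2 1.31, adjusted p = 0.0401), where it called 2.13% of all genes higher. Both are the members that varied least between the shCtrl libraries.

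**Figure D3:**
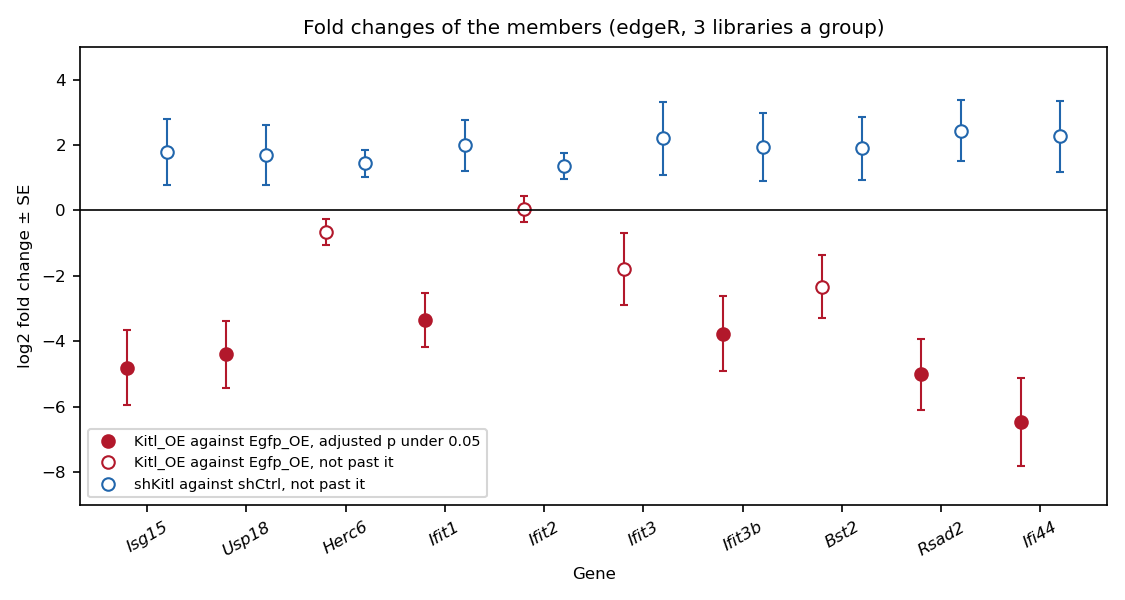
Log2 fold change with its standard error for each member, from edgeR with 3 libraries a group, for Kitl_OE against Egfp_OE in red and shKitl against shCtrl in blue; filled points passed an adjusted p of 0.05. The red values run from -6.47 for Ifi44 to 0.05 for Ifit2, and the blue values from 1.36 for Ifit2 to 2.44 for Rsad2.

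Among the genes of ISG15 conjugation, the modifier and its protease fell in Kitl_OE cells and the ligase did not pass by edgeR in either comparison, while DESeq2 called it higher in the knockdown (adjusted p = 0.0340). Isg15 (ENSMUSG00000035692, chromosome 4, 156199424 to 156200818) stood at 11.6, 24.3 and 11.2 CPM in Kitl_OE libraries and at 169, 1115 and 38.5 CPM in Egfp_OE libraries. It stood at 327, 382 and 395 CPM in shKitl libraries and at 232, 65.3 and 22.7 CPM in shCtrl libraries. All Kitl_OE libraries were under all Egfp_OE libraries, the nearest pair being the P19 libraries, and all shKitl libraries were above all shCtrl libraries. Isg15 fell in Kitl_OE cells by 4.81 on the log2 scale (SE 1.15, adjusted p = 0.00790 by edgeR), a fitted level 28.1-fold lower. Without Egfp_OE P18 it fell by 2.71 (adjusted p = 0.0309 by edgeR). In the knockdown its log2 fold change was 1.79 (SE 1.00, adjusted p = 0.392 by edgeR), which did not pass.

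Usp18 (ENSMUSG00000030107, chromosome 6, 121245906 to 121270917), the protease that takes ISG15 off its targets, followed the same course. Its levels were 5.33, 13.4 and 4.81 CPM in Kitl_OE libraries and 109, 358 and 28.6 CPM in Egfp_OE libraries. They were 189, 224 and 228 CPM in shKitl libraries and 149, 37.1 and 10.5 CPM in shCtrl libraries. The groups of both pairs did not overlap, and the shKitl libraries lay within 1.20-fold of each other. Usp18 fell by 4.40 in Kitl_OE cells (log2, SE 1.03, adjusted p = 0.00730 by edgeR). That drop was 3.12 without Egfp_OE P18 and 5.00 without Kitl_OE P19, both still past the threshold (adjusted p = 0.0257 and 0.0175 by edgeR). Its knockdown value was 1.70 (SE 0.92, adjusted p = 0.377 by edgeR).

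Herc6 (ENSMUSG00000029798, chromosome 6, 57581000 to 57664632) is the ISG15 ligase of mouse cells. It was at 33.8, 35.3 and 31.0 CPM in Kitl_OE libraries and at 51.2, 82.7 and 24.3 CPM in Egfp_OE libraries. In shKitl libraries it was at 90.8, 128 and 121 CPM, against 65.8, 32.6 and 26.6 CPM in shCtrl libraries. The Kitl_OE libraries lay inside the Egfp_OE range, above P19 and under the others. Its log2 fold change was -0.66 in the overexpression pair (SE 0.40, adjusted p = 0.230) and 1.44 in the knockdown pair (SE 0.41, adjusted p = 0.209), both by edgeR. Of the 50-base stretches of its transcripts 23.8% also lie in the overlapping gene model Gm45193, so some of its reads may have been assigned elsewhere.

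The 4 Ifit genes lie side by side on chromosome 19, between 34550694 and 34650009. By edgeR Ifit1 and Ifit3b fell in Kitl_OE cells and Ifit2 and Ifit3 did not pass, and differences between the genes were not tested. In the knockdown pair every shKitl library lay above every shCtrl library for all 4. Ifit1 (ENSMUSG00000034459), which binds viral RNA ends that lack the host cap pattern, was at 25.6, 39.7 and 18.9 CPM in Kitl_OE libraries and at 201, 604 and 51.2 CPM in Egfp_OE libraries. It was at 443, 483 and 529 CPM in shKitl libraries and at 245, 80.3 and 39.4 CPM in shCtrl libraries. Neither pair of groups overlapped, although Kitl_OE P19 and Egfp_OE P19 came close. Ifit1 fell by 3.34 in Kitl_OE cells (log2, SE 0.82, adjusted p = 0.00924 by edgeR), and by 2.15 without Egfp_OE P18 (adjusted p = 0.0384 by edgeR). In the knockdown its value was 2.00 (SE 0.78, adjusted p = 0.267 by edgeR). Of its 50-base stretches 7.13% also occur in other genes, mainly Ifit1bl2.

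Ifit2 (ENSMUSG00000045932), the first gene of the row and a factor that protects mice from several neurotropic viruses, was the 1 member without a negative log2 value in the overexpression pair. It stood at 108, 113 and 76.6 CPM in Kitl_OE libraries and at 98.4, 143 and 46.6 CPM in Egfp_OE libraries. It stood at 174, 208 and 147 CPM in shKitl libraries and at 105, 54.8 and 46.2 CPM in shCtrl libraries. Kitl_OE and Egfp_OE overlapped almost wholly, while every shKitl library lay above the libraries of all 3 other groups. Its log2 fold change was 0.05 in Kitl_OE cells (SE 0.39, adjusted p = 0.940), with a sign that turned under library-total scaling (-0.016), and 1.36 in the knockdown (SE 0.39, adjusted p = 0.210), both by edgeR.

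Ifit3 (ENSMUSG00000074896), whose human counterpart stabilises IFIT1, and its near copy Ifit3b (ENSMUSG00000062488) share sequence, with 51.2% of the 50-base stretches of Ifit3 present in Ifit3b, so the split of reads between them is uncertain. Ifit3 was at 65.1, 119 and 24.2 CPM in Kitl_OE libraries and at 128, 577 and 18.7 CPM in Egfp_OE libraries. Ifit3b was at 4.90, 9.30 and 3.51 CPM in Kitl_OE libraries and at 47.1, 187 and 6.51 CPM in Egfp_OE libraries. Both genes overlapped between these groups at Egfp_OE P19, which was as low as Kitl_OE. The log2 fold change of Ifit3 was -1.80 (SE 1.10, adjusted p = 0.227 by edgeR) and reached -0.07 without Egfp_OE P18. Ifit3b fell by 3.76 (SE 1.14, adjusted p = 0.0245 by edgeR; exact two-sided permutation p = 0.2), the highest adjusted p of the 6 calls. It lost the call without Egfp_OE P18 (-2.17, adjusted p = 0.124 by edgeR) and without Kitl_OE P18 (-3.62), P19 (-4.23) or P20 (-3.46), and passed in 15 of 26 alternative settings with adjusted p from 0.00295 to 0.208.

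In the knockdown pair both copies were higher in every shKitl library than in any shCtrl library. Ifit3 was at 345, 630 and 515 CPM in shKitl libraries and at 248, 60.0 and 14.99 CPM in shCtrl libraries. Ifit3b was at 90.1, 183 and 173 CPM in shKitl libraries and at 86.9, 23.9 and 4.96 CPM in shCtrl libraries. The lowest shKitl library of Ifit3b, P13, was barely above the highest shCtrl library, P14. Their log2 fold changes were 2.21 (SE 1.11, adjusted p = 0.353) and 1.94 (SE 1.05, adjusted p = 0.376), both by edgeR.

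Bst2 (ENSMUSG00000046718, chromosome 8, 71534255 to 71537456), tetherin, stood at 171, 306 and 162 CPM in Kitl_OE libraries and at 308, 2782 and 121 CPM in Egfp_OE libraries. It stood at 1045, 1229 and 872 CPM in shKitl libraries and at 571, 187 and 86.4 CPM in shCtrl libraries. A single library, Egfp_OE P18, carried the gap between the overexpression groups. The log2 fold change of -2.33 (SE 0.97, adjusted p = 0.0832 by edgeR) did not pass, and became 0.0047 without that library. Leaving out Egfp_OE P19 instead gave -2.85 (adjusted p = 0.0267 by edgeR), the only one of 26 alternatives with a call. In the knockdown its log2 fold change was 1.90 (SE 0.96, adjusted p = 0.353 by edgeR).

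The effectors Rsad2 and Ifi44 had the lowest TPM in Kitl_OE and the largest falls of the 6 called members. Rsad2 (ENSMUSG00000020641, chromosome 12, 26442746 to 26456452), viperin, was at 1.91, 2.89 and 1.54 CPM in Kitl_OE libraries and at 51.0, 147 and 6.81 CPM in Egfp_OE libraries. It was at 157, 221 and 263 CPM in shKitl libraries and at 86.3, 23.4 and 8.17 CPM in shCtrl libraries. Every Kitl_OE library was also under every shCtrl library. Rsad2 fell by 5.01 in Kitl_OE cells (log2, SE 1.08, adjusted p = 0.00454 by edgeR), a fitted level 32.3-fold lower, and by 3.76 without Egfp_OE P18 (adjusted p = 0.0149 by edgeR). The knockdown value of 2.44 (SE 0.93, adjusted p = 0.261 by edgeR) was the highest of the 10.

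Ifi44 (ENSMUSG00000028037, chromosome 3, 151730922 to 151749960), an interferon-induced gene of the same antiviral programme, was at 1.44, 1.28 and 0.955 CPM in Kitl_OE libraries and at 66.1, 248 and 11.5 CPM in Egfp_OE libraries. It was at 105, 211 and 192 CPM in shKitl libraries and at 85.8, 16.7 and 2.54 CPM in shCtrl libraries. The Kitl_OE libraries lay under all 9 others. Its fitted level was 88.6-fold lower in Kitl_OE, a log2 fold change of -6.47 (SE 1.35, adjusted p = 0.00391 by edgeR), and -4.97 without Egfp_OE P18 (adjusted p = 0.0115 by edgeR). In the knockdown its log2 fold change was 2.27 (SE 1.08, adjusted p = 0.332 by edgeR), and 4.13 without shCtrl P14 (adjusted p = 0.0818 by edgeR).

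Whether the members answered overexpression and knockdown of Kitl differently was tested directly, as the Kitl_OE minus Egfp_OE effect less the shKitl minus shCtrl effect. The manipulations are opposite, so a gene that follows Kitl either way would differ here, and the libraries are those of both comparisons. The difference was negative for all 10, with a median log2 of -5.53 against -0.09 over all genes, and 7 of 10 passed by edgeR at an adjusted p of 0.05, beside 9.88% of all genes on that side. Ifi44 differed by -8.74 (adjusted p = 0.00679), Rsad2 by -7.45 (adjusted p = 0.00582) and Ifit1 by -5.34 (adjusted p = 0.00992), all by edgeR. Isg15 (-6.60), Usp18 (-6.10), Ifit3b (-5.71) and Herc6 (-2.10) passed as well, and Bst2 (-4.23), Ifit3 (-4.00) and Ifit2 (-1.31) did not. Ifi44 and Rsad2 passed in all 24 alternatives run on this difference. Ifit3b and Herc6 passed in 12 of 24. Without Egfp_OE P18 Ifit3b was at -4.09 (adjusted p = 0.0703 by edgeR) and Herc6 at -1.58 (adjusted p = 0.0558 by edgeR), and either also lost its call when any 1 of the Kitl_OE libraries was left out.

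Some calls in this difference also rested on other libraries. Ifit3b did not pass without shCtrl P15, shKitl P14 or shKitl P15, and Herc6 did not pass without shCtrl P15, shCtrl P16, shKitl P14 or shKitl P15. In the other direction, Ifit2, Ifit3 and Bst2 passed without Egfp_OE P19 (-1.64, -4.55 and -4.75) and without shCtrl P14 (-1.75, -5.52 and -5.26), and Bst2 passed without Egfp_OE P17 (-4.66). Leaving out shCtrl P14 or Egfp_OE P18 moved the size of the called values most: Ifi44 was at -10.60 without shCtrl P14 and at -7.21 without Egfp_OE P18, and Rsad2 at -8.76 and -6.18 in the same order.

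The 2 control lines were set against each other, and Kitl_OE against the hairpin control, as a measure of background; these comparisons share libraries with those above and are no independent evidence. Egfp_OE had positive log2 fold changes against shCtrl for all 10 members, from 0.34 for Herc6 to 2.05 for Isg15, but spike-in scaling turned the sign of Ifit2, Ifit3b, Herc6 and Rsad2, and leaving out Egfp_OE P18 that of 6 members. The groups overlapped for every member, where 28.5% of all genes did not overlap. None was called by edgeR, beside 1.25% of all genes called. None had an unadjusted p under 0.05 by edgeR, beside 3721 of 15271 genes. In Kitl_OE against shCtrl 3 members fell, beside 16.5% of all genes that fell. By edgeR these were Rsad2 (-4.22, adjusted p = 0.0103), Ifi44 (-4.84, adjusted p = 0.0138) and Usp18 (-3.07, adjusted p = 0.0323). With the P number as a covariate they were at -1.28, -0.75 and 0.25, and none of them passed. Over all genes 1233 fell in that fit. No P number is shared between shCtrl and Egfp_OE or Kitl_OE, so line and P number cannot be told apart in these comparisons. The Kitl_OE and shCtrl libraries did not overlap for Rsad2 and Ifi44, as for 30.1% of all genes on that side. Ifit2 had a log2 fold change of 0.53 (adjusted p = 0.320 by edgeR). The count of 3 was 1 without Kitl_OE P19 or without shCtrl P14, and 6 without Egfp_OE P18, Egfp_OE P19 or shCtrl P16. Over all genes 2517 fell in the main fit and 1553, 2366, 3506, 2476 and 1735 in these fits, in the same order. Rsad2 kept its call without shCtrl P14 (-2.90), where Ifi44 (-2.97) and Usp18 (-1.60) did not. Ifi44 also lost its call without Kitl_OE P19 (-4.87), and Usp18 without any 1 of the Kitl_OE libraries (-2.84, -3.69 and -2.79 without P18, P19 and P20).

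Libraries with the same P number allow a second look, with 1 library on each side and no test. At P18 all 10 members were lower in Kitl_OE than in Egfp_OE, with a median ratio of 0.0343 and a range from 0.00579 for Ifi44 to 0.757 for Ifit2. At P19, 5 were lower and 5 higher: Ifi44 was at a ratio of 0.112, Rsad2 at 0.425 and Usp18 at 0.467, and Ifit3 at 6.36, Bst2 at 2.54 and Ifit2 at 2.42. The P19 pair thus held both directions, and the direction of Ifit3b, the call that overlapped, was upward there, at 1.43. In the knockdown all 10 were higher in shKitl at both shared numbers, with a median ratio of 2.04 (1.498 to 2.56) at P14 and 6.36 (2.68 to 11.5) at P15. Between these numbers shCtrl was lower at P15 than at P14 for every member. When the fit was limited to libraries with shared P numbers, 0 of 10 members passed in the overexpression pair, with adjusted p of 0.0906 for Ifi44 and 0.129 for Rsad2 by edgeR. With the P number as a covariate 5 passed, Ifit3b being lost.

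**Figure D4:**
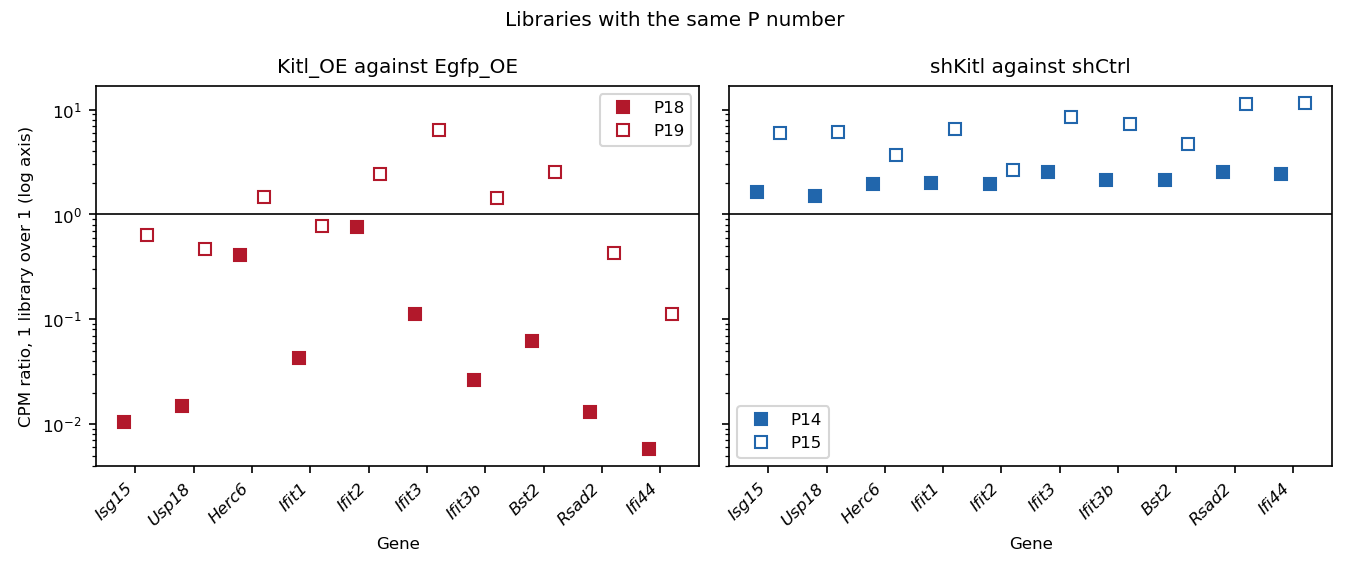
Ratio of CPM between 2 libraries with the same P number, on a log axis, for each member: Kitl_OE over Egfp_OE at P18 and P19 on the left, shKitl over shCtrl at P14 and P15 on the right. All P18 ratios lie under 1, the P19 ratios straddle it, and all knockdown ratios lie above it.

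The proportions of the members to each other were compared as well. Each ratio sets 1 gene that did not pass in the overexpression pair (Ifit3, Ifit2, Bst2 or Herc6) over 1 that fell, which favours a high ratio in Kitl_OE. These ratios of deposited TPM within a library were chosen after the values were seen and carry no test. Ifit3 exceeded Ifit3b by 12.6 ± 4.07 in Kitl_OE and 3.31 ± 0.21 in Egfp_OE, and by 3.91 ± 0.49 in shKitl and 3.20 ± 0.30 in shCtrl (SD, n = 3 each). The lowest Kitl_OE library was at 7.89, above every library of the other groups, but the split of reads between these 2 genes is uncertain. Ifit2 over Ifit1 was 2.51 ± 0.52 in Kitl_OE and 0.369 ± 0.230 in Egfp_OE, and 0.248 ± 0.0536 in shKitl and 0.515 ± 0.255 in shCtrl. Bst2 over Isg15 was 11.7 ± 0.97 in Kitl_OE and 2.08 ± 0.55 in Egfp_OE, and 2.40 ± 0.48 in shKitl and 2.55 ± 0.58 in shCtrl. In these 3 ratios the Kitl_OE libraries lay above the other 9, a separation that the choice of genes favoured. Ifit2 over Isg15 was at least 0.893 in Kitl_OE and at most 0.391 elsewhere. Herc6 over Usp18 barely separated them, with Kitl_OE P19 at 0.793 and shCtrl P16 at 0.760.

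**Figure D5:**
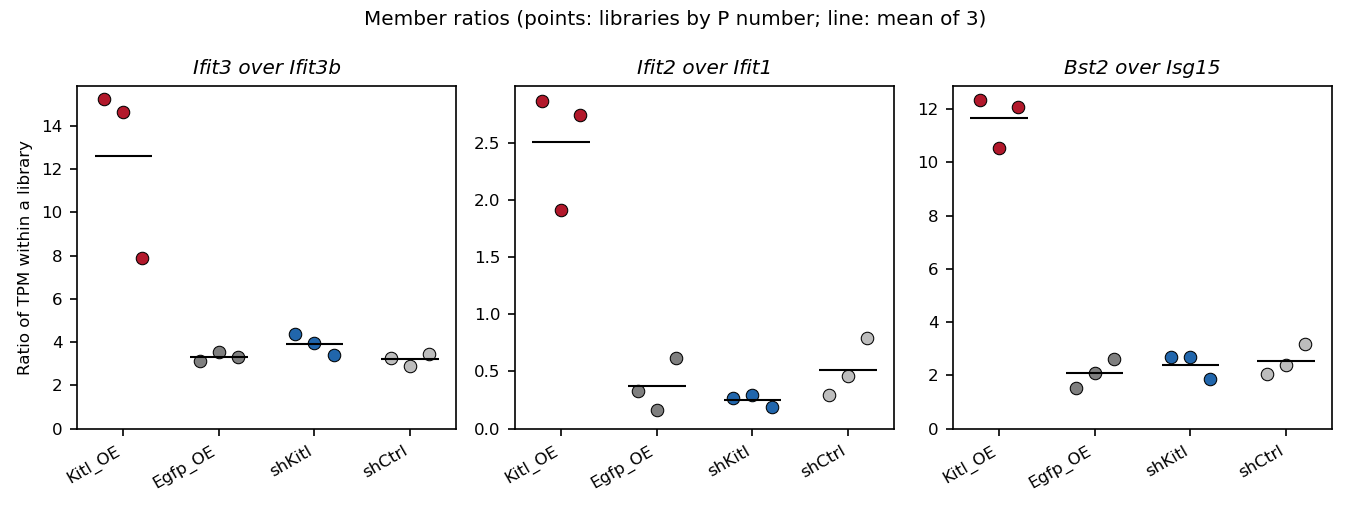
Ratio of deposited TPM of 2 members within each library, by group, with a line at the mean of 3 libraries; every axis starts at 0. The Kitl_OE libraries lie above all others in each panel, at 7.89 to 15.2 for Ifit3 over Ifit3b, 1.92 to 2.86 for Ifit2 over Ifit1 and 10.5 to 12.3 for Bst2 over Isg15.

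The rest of the interferon pathway was read from 8 lists of 122 genes, of which 93 were tested. In Kitl_OE against Egfp_OE 38 fell and 6 rose by edgeR, with a median log2 of -1.24 (-0.66 without Egfp_OE P18), beside 34.3% of all genes called in either direction. The count of 44 was 28 without Egfp_OE P18, 19 without Kitl_OE P18 and 25 without Kitl_OE P20. In these fits 20, 16 and 19 pathway genes fell and 8, 3 and 6 rose, in the same order. Over all genes the 5236 calls were 6150, 3502 and 3992 in the same order. Of all genes 2884 fell in the main fit and 3056 of 15622, 1813 of 15703 and 2059 of 15644 fell in these fits. In the knockdown 0 passed by edgeR, 85 of 93 had a positive value and 51 did not overlap on the higher side, beside 11.0% of all genes. Their median log2 was 1.16, and 1.92 without shCtrl P14, where edgeR called 5 higher, beside 65 of 15610 genes. DESeq2 called 8 of them higher, beside 2.13% of all genes.

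The ligands were barely transcribed. Of 18 interferon genes 13 had no count in any library. Ifnb1, the interferon that fibroblasts make first, had 1, 0 and 1 counts in Kitl_OE libraries and 10, 19 and 0 in Egfp_OE libraries. It had 17, 11 and 8 counts in shKitl libraries and 1, 2 and 0 in shCtrl libraries. So the shKitl libraries and Egfp_OE P17 and P18 had at least 8 counts each and no other library had more than 2. Among those others was shCtrl P14, highest of its group for every member, with 1 count. Ifna4 had 7 counts in shCtrl P14 and at most 4 in any other library. Ifna4 had too few counts to be tested. The fitted log2 fold change of Ifnb1 was -3.58 in Kitl_OE cells (adjusted p = 0.0464 by edgeR), a value that depends on a handful of counts.

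Of 9 receptors and their kinases Il10rb (0.81) and Ifngr1 (0.52) rose in Kitl_OE cells and 0 fell. Among the transcription factors that fell were Irf7, which amplifies interferon production (-4.80), Irf5 (-3.55) and Irf9 (-1.74). Of 12 sensors and adaptors 5 fell and 1 rose, with Zbp1 (-5.60), Dhx58 (-3.42), the DNA sensor cGAS gene Mb21d1 (-1.96) and the RNA sensor RIG-I gene Ddx58 (-1.84) the largest changes; Ifi204 (-1.66) was the other that fell and the adaptor Mavs (0.66) the 1 that rose. Of 5 partners of ISG15 conjugation only the ligase Trim25 passed (-1.47). The neighbour of Rsad2 on chromosome 12, Cmpk2, fell by 4.98, and Rnf144a (-3.51) and Isg20 (-1.83) fell too, whereas Ifit1bl1, of the Ifit row, rose (1.28). Among 40 other antiviral effectors 22 fell, led by Oas1a (-5.23), Mx1 (-5.02), Oas1g (-4.64) and Apobec3 (-4.35), and 1 rose, Ifi27 (0.80). Of 8 negative regulators Ptpn6 rose (2.67) and Socs1 (-1.59) and Pias1 (-0.73) fell. All values in this paragraph are log2 fold changes of Kitl_OE against Egfp_OE, and all calls are edgeR's at an adjusted p of 0.05. Over all genes 15.4% rose and 18.9% fell, and no list was tested against these shares. The calls among receptors and kinases, conjugation partners and negative regulators were a few genes each, near these shares.

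Across the 12 libraries the log2 CPM of the members followed one another, as a description over libraries that share 4 groups. Pearson's r over the 45 pairs of members ran from 0.580 to 0.990, with a median of 0.905. Against the mean profile of the 10, Ifit2 was the least alike (r = 0.794) and Ifit3b the most (r = 0.990). Each member is part of that mean, which raises its r beside that of genes outside the list. The genes outside the list with the most similar profile were Mndal (r = 0.994), Igtp (0.994), 4930512H18Rik (0.992), Ifi203 (0.989), Sp100 (0.989), Apol9a (0.988), Xaf1 (0.988) and Dhx58 (0.987). In all 159 other genes had r above 0.9 with that profile.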

How the data were processed

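PolyA RNA of 12 libraries was sequenced. The authors deposited a table of raw counts, for which the submitters' processing notes list STAR 2.5.2b, featureCounts of Subread 1.5.2, DESeq2 and GRCm38. They also deposited TPM values of the same libraries. Neither the strand setting nor the annotation release is stated in the sources used here, and reads of overlapping or antisense genes cannot be separated. ERCC spike-ins (92 of 49763 entries) did not enter library sizes or tests.

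The counts went into edgeR 4.0.16 (R 4.3.3) with filterByExpr, TMM and a robust quasi-likelihood fit, in which all 12 libraries shared 1 model with a coefficient for each group (biological coefficient of variation 0.292). The Benjamini-Hochberg adjustment ran over 15271 genes, with a threshold of 0.05. Each standard error is the fold change divided by the root of its F value. Spreads are SDs over 3 libraries; counting error was small beside them for all but the lowest genes. The fitting was tested on simulated counts with the same spread for every gene and no outlying library. That run therefore does not speak to genes as uneven within a group as the members.

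Alternatives changed the tool (DESeq2 1.42.0, limma 3.58.1 with voom, log2(TPM + 1) or log2(TPM + 0.1)), the scaling (DESeq2 size factors, library totals, spike-in totals), the filter (any count; 3 libraries at a CPM of 5), the threshold (0.01), the model (replicate block, P covariate, only the groups compared) and the libraries (shared P numbers, each left out in turn).

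The members, lists and tests were chosen with earlier results of these data known. Named by rule were all members, Kitl and the 8 genes most like the members' mean profile. So were up to 4 genes past 0.05 with the largest change of each pathway list. Kit, Ifna4, Ifi204, Mavs, Ifi27 and the marker genes given by name were added after their values were seen. Gene coordinates are from GENCODE M21 (GRCm38). A few pathway and marker genes are not reported here.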

Additional observations from a re-analysis of the deposited data

Results flagged for a closer look

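For 7 members the effect of Kitl overexpression differed from that of Kitl knockdown in the test of the difference itself (edgeR, adjusted p under 0.05). On the log2 scale, Kitl_OE minus Egfp_OE less shKitl minus shCtrl, the difference was -8.74 for Ifi44, -7.45 for Rsad2, -6.60 for Isg15, -6.10 for Usp18, -5.71 for Ifit3b, -5.34 for Ifit1 and -2.10 for Herc6. The 2 effects had opposite signs for each of the 7, as the 2 manipulations of Kitl do, so the difference is no independent evidence. The knockdown effect alone did not pass by edgeR for any of them, and DESeq2 called it for Herc6 (log2 1.40, adjusted p = 0.0340). The overexpression effect of Herc6 did not pass by edgeR either (adjusted p = 0.230). Egfp_OE P18 had the highest level of its group for each, with 1.35% of its counts in spike-ins.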

How the results depend on the processing

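In Kitl_OE against Egfp_OE, 238 of 260 values of single members under the alternatives kept their direction and side of the threshold, and in shKitl against shCtrl 258 of 260 did. For the difference of effects it was 201 of 240, for Egfp_OE against shCtrl 240 of 250 and for Kitl_OE against shCtrl 203 of 250. Leaving out 1 library at a time gave 5 to 7 members called in Kitl_OE against Egfp_OE, 0 to 0 in shKitl against shCtrl and in Egfp_OE against shCtrl, 5 to 10 for the difference and 1 to 6 in Kitl_OE against shCtrl. Pathway genes called then ranged over 19 to 50 in the overexpression pair and 0 to 5 in the knockdown pair. Over all genes these fits called 3502 to 6150 in Kitl_OE against Egfp_OE, 0 to 277 in shKitl against shCtrl and 0 to 771 in Egfp_OE against shCtrl. They called 1245 to 2842 for the difference and 3017 to 7195 in Kitl_OE against shCtrl.

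Of the 6 members called in Kitl_OE against Egfp_OE, 0 passed with shared P numbers only, where each arm has 2 libraries. Over all genes 659 fell there, against 2884 in the main fit. DESeq2 called 2 members and 8 pathway genes in the knockdown, against 0 by edgeR. The 7 of the difference were 3 at an adjusted p of 0.01, 2 with all genes of any count and 4 with the P number as a covariate. On the same side, the 1509 calls over all genes were 688, 1304 and 1002. The 3 of Kitl_OE against shCtrl were 0 at an adjusted p of 0.01, with any count, with voom and with the P covariate. They were 1 with log2(TPM + 1), 5 with only the groups compared, and 6 with DESeq2 and with spike-in totals. The 2517 genes that fell over all genes were 1354, 2220, 2361, 1233, 2099, 3795, 2967 and 1604 in the same order. The 44 pathway genes of the overexpression pair were 13 at an adjusted p of 0.01, 21 with any count and 23 with spike-in totals. They were 26 with the P covariate, 28 with voom, 29 with log2(TPM + 1) and 5 with shared P numbers. Over all genes the 5236 calls of the main fit were 2822, 4624, 2351, 5051, 5129, 4020 and 1282 in the same order. The cause was not tested.

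The sign turned in these cases. In Kitl_OE against Egfp_OE, Ifit2 was at -0.016 with library totals and ranged from -0.28 (without Egfp_OE P19; -0.04 without Kitl_OE P19) to 0.47 with 1 library left out, and Bst2 from -2.85 to 0.0047 (without Egfp_OE P18). In Egfp_OE against shCtrl, spike-in totals gave -0.14 for Ifit2, -0.017 for Ifit3b, -0.32 for Herc6 and -0.18 for Rsad2. With 1 library left out there, the lowest values all without Egfp_OE P18 and the highest all without shCtrl P14, Ifit3 ranged from -0.55 to 2.68, Ifit3b from -0.52 to 2.47, Isg15 from -0.036 to 3.32, Herc6 from -0.14 to 0.83, Bst2 from -0.39 to 2.97 and Rsad2 from -0.44 to 2.11. In Kitl_OE against shCtrl, the P covariate gave 0.39 for Ifit1, 3.56 for Ifit3, 0.62 for Ifit3b, 0.029 for Isg15, 0.25 for Usp18, 0.77 for Herc6 and 2.21 for Bst2. With 1 library left out, Ifit3 ranged from -1.27 to 0.89, Herc6 from -0.54 to 0.17 and Bst2 from -0.81 to 0.64, the positive values without shCtrl P14. Scaling by spike-ins moved the median of all genes by 0.07 in Kitl_OE against Egfp_OE, -0.11 in the knockdown, 0.18 in the difference, -0.40 in Egfp_OE against shCtrl and -0.33 in Kitl_OE against shCtrl (log2).

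The replicate block called 6, 0, 7, 0 and 3 members in the 5 comparisons, as without it. Libraries with the same replicate number in the labels correlated in their deviations at 0.0262, 0.204 and 0.169 in the overexpression pair and 0.151, -0.259 and 0.527 in the knockdown pair, so these numbers were not taken to pair the libraries. Libraries with the same P number correlated at -0.0017 (P18) and -0.176 (P19) in the overexpression pair. In the knockdown pair the correlations were 0.556 (P14) and 0.319 (P15). There edgeR called 0 members with the P covariate and with shared P numbers only, beside 0 of 15271 and 0 of 14569 genes. Genes called over the alternatives ranged from 1282 to 6150 in Kitl_OE against Egfp_OE, against 5236. Depth limits genes of a few counts, such as Ifnb1, and no smallest detectable fold was measured for the members.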
